A study of Solea senegalensis with 30 samples.

Results

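Plasma miRNAs were compared between 4 control males and 5 control females of Senegalese sole (Solea senegalensis), sampled 2 d after an injection that held no hormone. These are 9 of the 30 fish of the study, chosen by their labels for treatment, sampling time and sex. The fish were adult, hatchery-born breeders, and the control fish, labelled untreated, had received phosphate buffered saline in the muscle. The other fish of 2 d, 5 females and 6 males, had received the kisspeptin decapeptide KISS2-10 at 250 µg/kg and are used here only beside the control fish. The 9 control fish came from 1 tank, so tank and sex were not confounded among them, whereas the kisspeptin fish came from another tank. The fish are given by their own codes: females A2-2, A2-5, A2-7, A2-9 and A2-10, and males A2-11, A2-12, A2-14 and A2-16.

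MicroRNAs are short RNAs that are cut from a hairpin precursor and lower the translation and stability of messenger RNAs that match their seed, the bases 2 to 8 from the 5′ end. Many of them leave cells in vesicles or bound to proteins and persist in blood plasma, where those made mainly in one tissue, such as miR-122 in the liver, can be read as a trace of that tissue. Among the miRNAs linked to reproduction, miR-202 is made mainly in the gonads of vertebrates, and medaka females without it lay fewer eggs. The sexes can be compared in these fish without the hormone, which is the contrast described here.

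Reads were counted per isomiR, meaning each distinct read sequence listed under a miRNA name. The deposited counts listed 172 names with 2129 isomiRs, and 150 names and 1491 isomiRs had at least 1 count in the 9 fish. Other names were not analysed here. The most abundant isomiR of the names on which the comparison turns is shown with the letters of the deposited counts (T for U) and with the seed in capitals.
miR-122-5p: tGGAGTGTgacaatggtgttt
miR-122-3p: aACGCCATtatcacactaaat
miR-202-5p: tTCCTATGcatatacctcttt
miR-202-3p: aAAGAGGCatagggcatggga
miR-126a-3p: tCGTACCGtgagtaataatgca
miR-203a: gTGAAATGtttaggaccacttg
miR-199a-5p: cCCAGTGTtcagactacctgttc
miR-141: tAACACTGtctggtaacgatg
Both arms of the miR-122 and miR-202 hairpins are shown because they lay on the same side of the comparison, and no pair of these 8 forms shared a seed. Over the 35 names picked by the rules stated under the processing, which leave out a few others given with values, the main forms held 33 seeds. The shared ones were AGCAGCA in miR-15a and miR-16b and GGAATGT in miR-1c and miR-206-3p.

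The libraries of the sexes differed in depth, which here means the total counts on miRNAs and not the raw reads. The paper lists similar numbers of raw reads for the sexes, and a lower percentage annotated as miRNA in most of these males. The totals were 191846, 163635, 124752, 84252 and 52960 counts in the females and 39267, 65358, 29918 and 41948 in the males. Only A2-10 among the females had fewer counts than the deepest male. The mean log2 total was 15.37 ± 0.47 (SD, n = 4) in males and 16.77 ± 0.75 (SD, n = 5) in females, or -1.40 in males minus females (p = 0.0317 in an exact permutation test of the sex labels, two-sided). The number of names expected at an equal depth of 29918 counts was 92.3 ± 10.8 (SD, n = 4) in males and 86.7 ± 11.4 (SD, n = 5) in females (exact p = 0.476). Depth and sex cannot be told apart in the levels below, and the libraries were read in 2 sequencing runs that the labels do not assign to fish, so the part of the run was not tested.

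**Figure D1:**
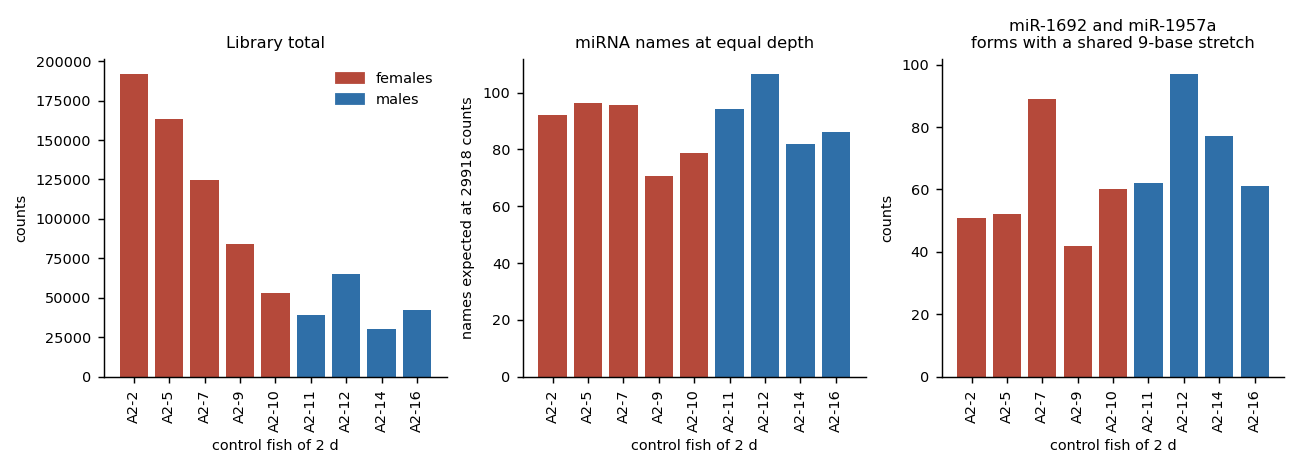
Bars give, for each of the 9 control fish of 2 d (females red, males blue), the total counts of the library, the number of miRNA names expected at 29918 counts, and the counts of the 37 isomiRs that hold a stretch shared by miR-1692 and miR-1957a. The totals of the females reach 191846 and those of the males 65358, whereas the counts of the shared stretch lie between 42 and 97 in every fish.

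A second property of the counts bears on each name. In every library many isomiRs were at 0 although their mean share in the control libraries that counted them implied at least 30 counts. A form counted in few fish can thus give such zeros in the rest. Differences between fish and gaps in the listing cannot be told apart in them. Such zeros took 41.5 to 53.0% of the isomiRs with at least 30 implied counts per library, and 342 isomiRs, which held 55.8% of the counts of the 9 fish, had at least 1 of them. The main form of miR-21 was counted 6843 to 43347 times in 8 fish and 0 times in A2-10, where a form with 1 added base had 1197 counts. The main form of miR-16b was at 0 in A2-14 and between 2727 and 14985 in the others. By contrast, the main forms of miR-126a-3p and miR-202-5p were counted in all 9 fish. For the 2 main forms of miR-122-5p, which differ by 1 base at the 3′ end, both were counted in A2-5 and A2-16, neither in A2-12, and a single one in each of the other 6 fish. The sex differences were also computed with such isomiRs left out, and values without them are given beside several of the names they touch. This step also drops any well counted form that is truly absent in fish of one sex. It therefore cannot measure the part of these zeros, and the values are descriptions.

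**Figure D2:**
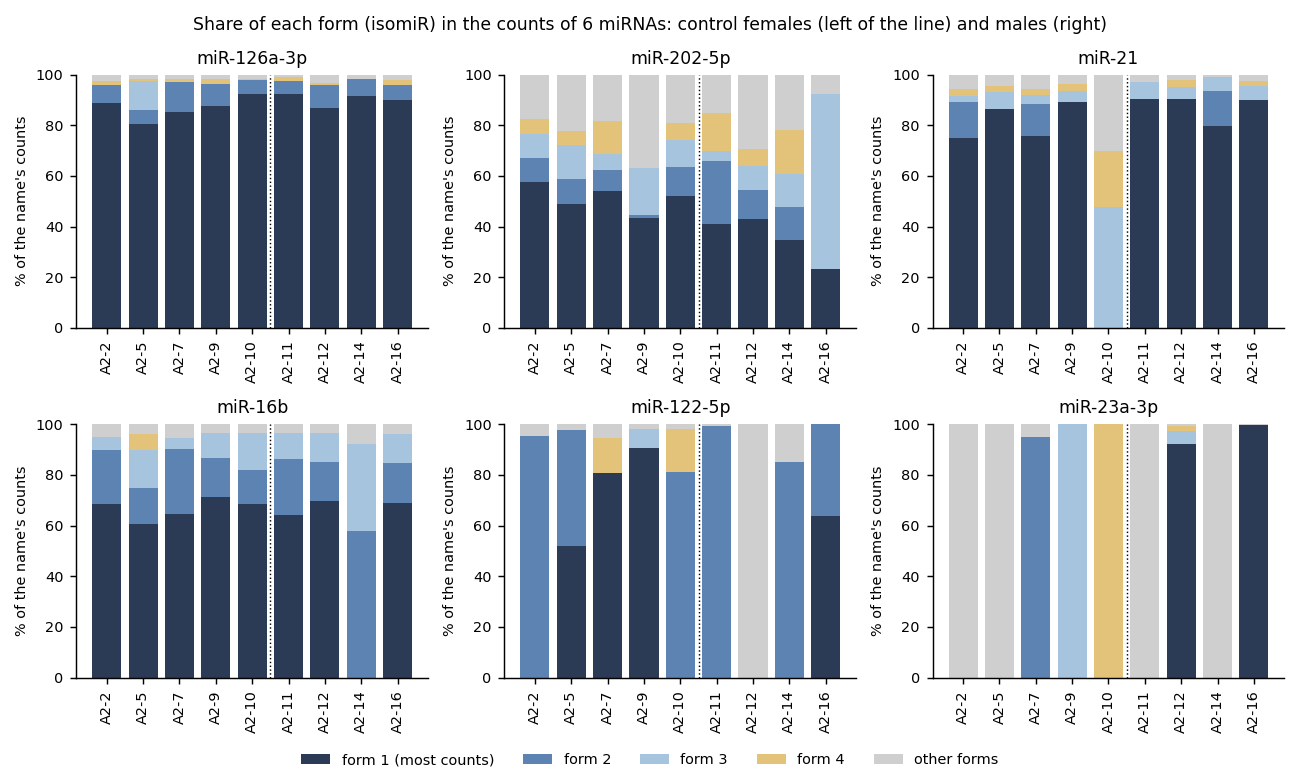
Stacked bars give the percentage of a name's counts held by its 4 most abundant forms and by the others, for 6 miRNAs in the control females (left of the dotted line) and males (right). miR-126a-3p is led by the same form in all 9 fish (80.5 to 92.5%), miR-21 lacks its main form in A2-10, miR-16b in A2-14, and the leading form of miR-122-5p and miR-23a-3p changes from fish to fish.

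The whole profile separated the sexes more than most other assignments of the 9 fish. Sex accounted for 20.5% of the variation of 123 miRNAs in log2 cpm (pseudo-F 1.81, one-sided exact permutation test over all assignments of the fish, p = 0.0159). Any assignment of the fish accounts for some share, so 20.5% is not the part due to sex alone. The level of a miRNA is given as log2 cpm with library sizes scaled by TMM, and the value per fish in cpm is the count per 1000000 counts of its library. With each fish left out, p lay between 0.0179 and 0.0357, and with counts thinned to equal depth sex accounted for 22.9% (exact p = 0.0159). With only the 35 miRNAs that had at least 1 cpm in all 20 fish of 2 d it accounted for 15.7% (exact p = 0.230).

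No single miRNA passed the test. In the quasi-likelihood test of edgeR on the 20 fish of 2 d, 0 of 123 miRNAs (0.0%) had an adjusted p under 0.05 for control males against control females, and the smallest adjusted p was 0.326. At an unadjusted p under 0.05 there were 13 of 123 (10.6%), 7 with a lower level in males (5.69%) and 6 with a higher one (4.88%). limma-voom gave 1 miRNA past the threshold, miR-199a-5p, and DESeq2 gave 0, with 15 and 14 at an unadjusted p under 0.05. With library totals as the only scaling, the log2 differences of all miRNAs moved by a median of 0.46, and the split at an unadjusted p under 0.05 became 8 higher and 4 lower in males. Fish of one group varied widely. The common dispersion over the 20 fish of 2 d was 1.72, and its square root gives an SD of 131% of the mean. The differences below are descriptions with their errors, not calls. In plasma, a lower level of a tissue's miRNA cannot be told apart from fewer releasing cells or less RNA released per cell.

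**Figure D3:**
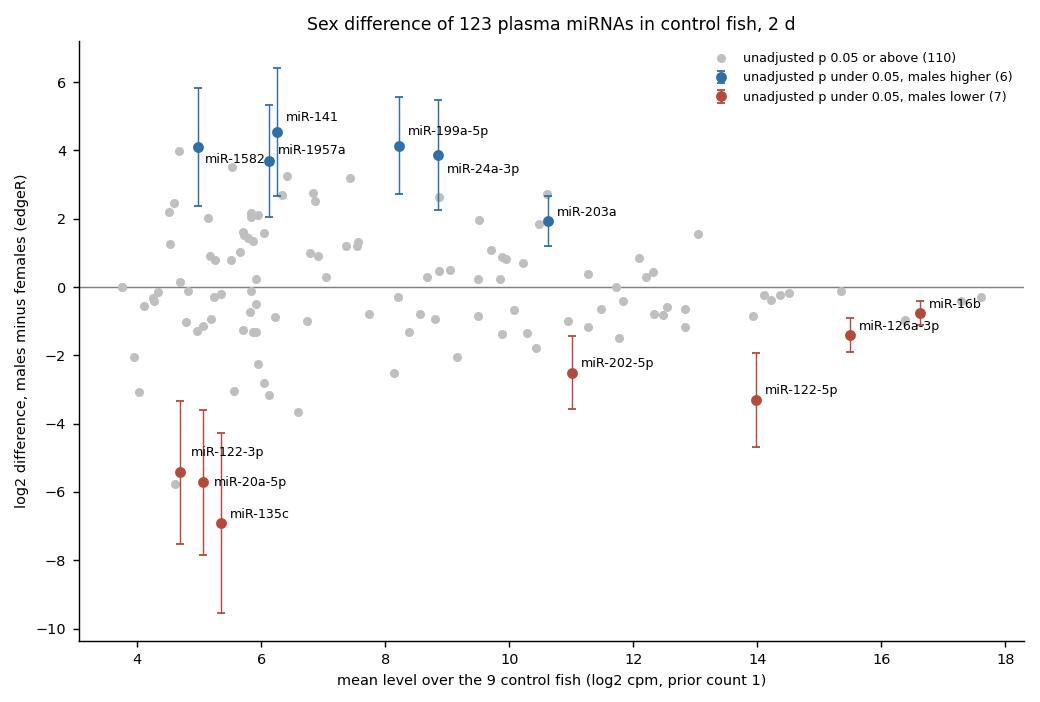
Each point is 1 of 123 miRNAs, with its mean level over the 9 control fish on the x axis (log2 cpm) and the log2 difference of males minus females on the y axis. Names are given for the 13 with an unadjusted p under 0.05, 6 higher (blue) and 7 lower (red) in males, with bars of 1 SE, and differences of over 3 on the log2 scale are found mostly at low levels. For miR-122-3p, miR-20a-5p and miR-135c, at 0 in all males, the fitted difference depends on the prior count.

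The liver miRNA miR-122 had a lower level in control males. miR-122-5p, which makes up most of the miRNA of the liver, was at 17707, 36282, 5491, 194550 and 74301 cpm in the females and at 13217, 489.6, 15208 and 11872 cpm in the males. The females other than A2-7 were above every male, and A2-12 stood far under the other males. In A2-12 the 4 most abundant forms of the name were at 0, and its 32 counts were all of other forms. The level was 12.30 ± 2.28 (SD, n = 4) in males and 15.33 ± 2.02 (SD, n = 5) in females, and the log2 difference was -3.30 with an SE of 1.38 (edgeR, adjusted p = 0.326, with 0.0635 in the exact permutation test of the level, unadjusted). Without A2-9, the highest female, the difference was -2.03, and without isomiRs with abrupt zeros it was -1.77. The passenger arm miR-122-3p had 1, 1, 0, 16 and 5 counts in the females and 0 in every male. Its mean in the females, 59.1 cpm, was under the mean floor of the males, 73.5 cpm for 3 counts per library, so no fold is given. miR-192, an miRNA of liver and gut, was at 1607 to 14290 cpm in females and at 4238 to 7271 cpm in males (log2 difference -0.83, SE 0.62, edgeR adjusted p = 0.603). Summed over the 4 tested names of the liver and gut list, the 5 females had 10292 to 209030 cpm and the 4 males 5064 to 20155 cpm. Most of this sum was miR-122-5p. The median log2 difference of the 4 was -2.07, against -0.13 for all 123 miRNAs, and 2 of the 4 are the arms of miR-122. The remaining name, miR-194a, was counted in 2 fish of each sex and was at 1.02 (SE 2.02).

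The gonad miRNA miR-202 had lower levels in control males in both of its arms. Counts of miR-202-5p were 1364, 170, 269, 81 and 1153 in the females and 73, 105, 46 and 13 in the males, or 7110, 1039, 2156, 961.4 and 21771 cpm against 1859, 1607, 1538 and 309.9 cpm. A2-2 and A2-10 were far above all other fish, A2-7 was above every male, and A2-5 and A2-9 lay within the range of the males, of which A2-16 was the lowest. The level was 9.90 ± 1.20 (SD, n = 4) in males and 11.90 ± 1.68 (SD, n = 5) in females, with a log2 difference of -2.50 and an SE of 1.08 (edgeR, adjusted p = 0.346). Leaving out A2-10 gave -1.76, and leaving out isomiRs with abrupt zeros gave -2.62. Its main form, shown above, held 43.2 to 57.6% of the counts of the name in females and 23.1 to 42.9% in males. In counts it was found 786, 83, 145, 35 and 602 times in the females and 30, 45, 16 and 3 times in the males. In A2-16, with 13 counts in all, 9 belonged to a form 2 bases longer.

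The 3p arm of miR-202 was scarce. miR-202-3p had 27, 1, 49, 0 and 32 counts in the females and 0, 1, 6 and 0 in the males, so that 3 females stood above every male in counts, whereas in cpm A2-14 (200.6) was above A2-2 (140.7). Its log2 difference was -2.24 with an SE of 1.7 (edgeR, adjusted p = 0.603). The value of miR-202-3p was -4.99 without A2-14, -1.77 without A2-10 and -5.06 without isomiRs with abrupt zeros. The main form of miR-202-3p was counted in 4 females (9, 1, 24 and 12 counts) and in no male. In males 3 counts per library set the floor, and the mean of the females was 1.28-fold that floor.

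The same 2 hairpins had the smallest p-values when fish with the hormone were added. In the kisspeptin fish, which share no fish and no tank with the control fish, miR-202-5p was at 1676 to 5787 cpm in the 5 females and at 0 to 1948 cpm in the 6 males, and only 1 male exceeded the lowest female. Its log2 difference there was -2.34 with an SE of 0.93 (edgeR, adjusted p = 0.492). miR-202-3p was counted in 4 of these 5 females and in 1 of the 6 males, with a log2 difference of -4.99 and an SE of 1.67 (edgeR, adjusted p = 0.492), which was the smallest p among 123. miR-122-5p was at 1099 to 77766 cpm in the kisspeptin females and at 76.1 to 12924 cpm in the males, with a log2 difference of -2.55 and an SE of 1.14 (edgeR, adjusted p = 0.492). Averaged over both treatments, a contrast added after the data were seen, the 4 smallest p-values belonged to miR-202-5p (-2.42, SE 0.72), miR-122-5p (-2.93, SE 0.90), miR-122-3p (-4.01, SE 1.29) and miR-202-3p (-3.62, SE 1.20). All 4 had an adjusted p of 0.205 in edgeR, 0 of 123 passed the threshold, and 13 (10.6%) had an unadjusted p under 0.05. In kisspeptin fish miR-122-3p was counted in 2 of 5 females (98.3 and 17.3 cpm) and 1 of 6 males (17.5 cpm). Its fitted difference thus rests on few counts in both treatments.

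**Figure D4:**
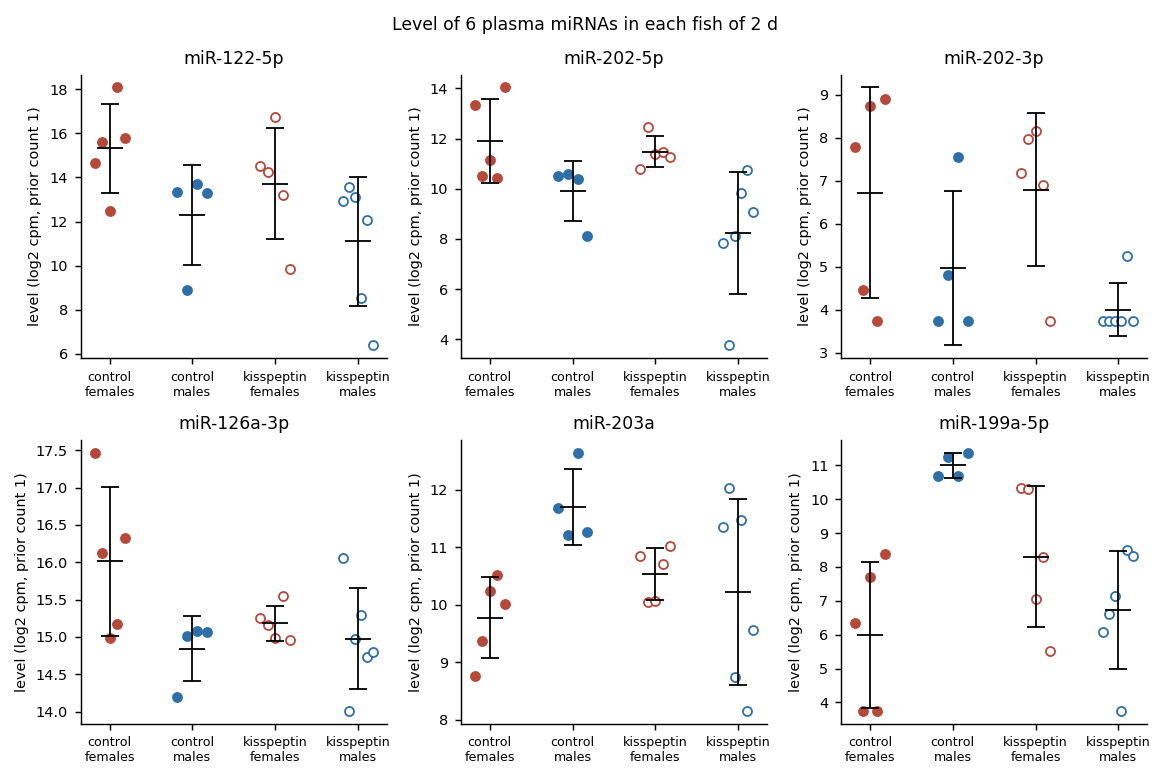
Points give the level (log2 cpm, prior count 1) of 6 miRNAs in each fish of 2 d, filled for control and open for kisspeptin fish, with the mean and SD of each group. The male means of miR-122-5p, miR-202-5p and miR-202-3p lie under the female means in both treatments, while miR-199a-5p and miR-203a do not overlap between the sexes in control fish and overlap in kisspeptin fish.

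The males sampled at 4 d came from other tanks and have no females beside them. Among the 5 control males of 4 d, miR-202-5p was at 839.2 to 14368 cpm with a median of 2966, which overlaps the control females of 2 d (961.4 to 21771 cpm, median 2156). The 5 kisspeptin males of 4 d were at 182.6 to 1390 cpm. For miR-122-5p the control males of 4 d were at 239.8 to 203860 cpm (median 16703), and the control females of 2 d at 5491 to 194550 cpm (median 36282). Among the same males miR-202-3p was at 0 to 414.6 cpm (median 91.0, counted in 4) and miR-122-3p at 0 to 191.4 cpm (counted in 3). In the control females of 2 d these arms reached 604.2 and 189.9 cpm, each counted in 4 of 5. The kisspeptin males of 4 d were at 143.2 to 14249 cpm for miR-122-5p, and each 3p arm was counted in 1 of them. For miR-203a the control males of 4 d were at 566.2 to 2966 cpm (median 884.0), and the control females of 2 d at 286.7 to 1322 cpm (median 1009). For miR-199a-5p these ranges were 0 to 606.0 cpm (median 60.0) and 0 to 415.4 cpm (median 46.9). The kisspeptin males of 4 d were at 0 to 4710 cpm for miR-203a and at 0 to 2605 cpm for miR-199a-5p. Tank, day and sex cannot be told apart in these values, and no test was made.

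The sign of the other names was compared between the treatments. Of the 13 names with an unadjusted p under 0.05 in control fish, 10 had a difference of the same sign in kisspeptin fish (76.9%), against 68 of all 123 (55.3%). Among these 10, miR-141 (0.055, SE 1.52), miR-126a-3p (-0.08, SE 0.43) and miR-16b (-0.17, SE 0.31) differed there by less than their SE. The same held for miR-1957a (0.19, SE 1.39), miR-203a (0.26, SE 0.66) and miR-24a-3p (0.41, SE 1.35). The rest of the 10 differed by more than their SE. Unadjusted p-values under 0.05 in kisspeptin fish were found for 10 of 123 names (8.13%), 6 higher and 4 lower in males. The names under 0.05 in both were miR-122-5p and miR-202-5p, with the same sign, and miR-135c, with the opposite sign. In the test of the difference between the treatments, 0 of 123 miRNAs passed (edgeR, smallest adjusted p = 0.20, 7 at an unadjusted p under 0.05), while limma-voom and DESeq2 each called 1, miR-199a-5p. For miR-202-5p the sex differences of the 2 treatments were 0.16 apart on the log2 scale (edgeR, adjusted p = 0.972).

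**Figure D5:**
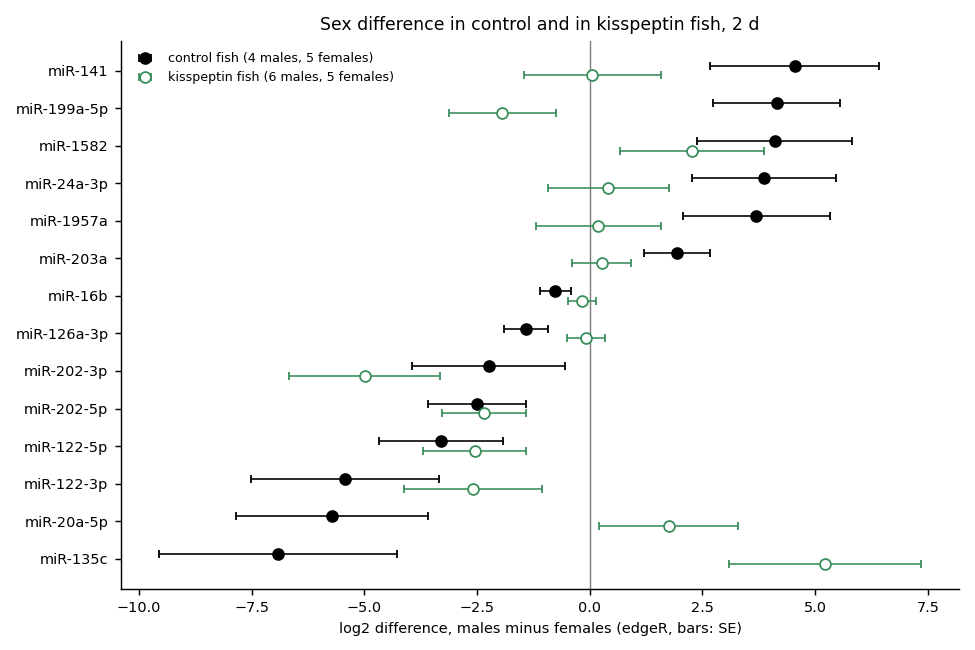
Log2 differences of males minus females with bars of 1 SE (edgeR) are given for 14 miRNAs in control fish (filled, 4 males and 5 females) and in kisspeptin fish (open, 6 males and 5 females). Both arms of miR-122 and miR-202 lie left of 0 in both treatments, miR-135c, miR-20a-5p and miR-199a-5p change side, and miR-126a-3p is at -1.41 in control and -0.08 in kisspeptin fish.

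The miRNAs of the vessel wall were led by miR-126a-3p. This miRNA, made in endothelial cells from an intron of Egfl7, was at 123970, 51768, 30709, 25661 and 106380 cpm in the control females and at 24117, 35099, 40277 and 40717 cpm in the males. A2-2, A2-5 and A2-10 were above every male, and A2-7 and A2-9 lay within the range of the males. The level was 14.84 ± 0.43 (SD, n = 4) in males and 16.01 ± 1.00 (SD, n = 5) in females, and the log2 difference of -1.41 with an SE of 0.50 had the second smallest p of 123 (edgeR, adjusted p = 0.326). Without A2-2 the difference was -0.88. In kisspeptin fish the log2 difference of miR-126a-3p was -0.08 (SE 0.43). miR-143-3p, known from smooth muscle, was at 30076 to 38567 cpm in A2-2, A2-7 and A2-11 and between 462.9 and 4796 cpm in the other 6 fish, so both sexes held high and low fish. Its main form held 84.7% of its counts and was counted in 2 females and 1 male and at 0 in 6 fish. Abrupt zeros were found in 8 of its isomiRs, and their part in this split was not tested. Of the 8 tested names of endothelium and vessel wall, 1 was lower in males at an unadjusted p under 0.05, against 7 of 123 (5.69%), and the median log2 difference was -0.99, against -0.13 over all. In kisspeptin fish the median of the 8 was 0.57.

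Names with a higher level in control males were mostly scarce. miR-203a, the keratinocyte miRNA of skin, had 55, 77, 141, 85 and 70 counts in the females and 165, 163, 221 and 121 in the males, although the male libraries mostly held fewer miRNA counts. Its values were 286.7 to 1322 cpm in females and 2494 to 7387 cpm in males, without overlap. The level was 11.70 ± 0.66 (SD, n = 4) in males and 9.78 ± 0.71 (SD, n = 5) in females, with a log2 difference of 1.93 and an SE of 0.74 (edgeR, adjusted p = 0.326), and over all alternatives it ranged from 1.51 to 2.33. The exact permutation test gave p = 0.00794, the smallest that the assignments of 9 fish allow, and 0.244 after adjustment over the 123. In kisspeptin fish the difference of miR-203a was 0.26 (SE 0.66).

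miR-199a-5p, which in mouse comes with miR-214 from the transcript Dnm3os of connective tissue cells, had the smallest p in edgeR. It was counted 9, 0, 23, 0 and 22 times in the females and 83, 167, 57 and 131 times in the males. All 4 males, at 1905 to 3123 cpm, were above all 5 females, at 0 to 415.4 cpm. The log2 difference was 4.14 with an SE of 1.41 (edgeR, adjusted p = 0.326), and limma-voom gave an adjusted p of 0.0178. The count of miR-199a-5p came from forms that were each present in few fish. Its main form had 22 counts in A2-10 and 71, 57 and 131 in A2-11, A2-14 and A2-16, while in A2-12 a form 1 base shorter had 122 counts and the main form 0. Without isomiRs with abrupt zeros the log2 difference was -0.11, and in kisspeptin fish it was -1.94 (SE 1.19). The other arm, miR-199a-3p, lay on the other side, at -0.30 (SE 1.20, edgeR adjusted p = 0.916). It had 23, 4, 55, 87 and 63 counts in the females and 13, 54, 33 and 0 in the males. miR-214-3p was at 0 in A2-10 and at 557.7 to 2509 cpm in the other females, against 762.9 to 10395 cpm in males (log2 difference 1.83, SE 1.14, edgeR adjusted p = 0.586), and its difference without isomiRs with abrupt zeros was 0.049.

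Other high values in males also rested on 1 fish or on single forms. miR-24a-3p had 973 counts in A2-16 and 8 to 52 in each of the other 8 fish, and its log2 difference of 3.87 (SE 1.60, edgeR adjusted p = 0.326) was -0.0014 without A2-16. There its 2 leading forms had 530 and 398 counts, and both were at 0 in the other 8 fish.
miR-24a-3p: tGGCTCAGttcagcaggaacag
miR-141, an epithelial miRNA of the miR-200 family, had 58, 34 and 30 counts in 3 males and 0 in A2-11, against 12, 2, 1, 0 and 0 in the females (log2 difference 4.55, SE 1.87, edgeR adjusted p = 0.326). Under miR-141, its main form, shown above, had 58, 29 and 29 counts in A2-12, A2-14 and A2-16 and 0 in the other 6 fish. The same sequence was listed a second time under miR-200a-3p, with 58 counts in A2-12 and 20 in the female A2-10, so that it was listed under both names in A2-12, under miR-141 alone in A2-14 and A2-16, and under miR-200a-3p alone in A2-10. Without isomiRs with abrupt zeros the difference of miR-141 was 0.87. miR-200b-3p, of the same family and known from the pituitary of mice, was at 183.3 to 994.0 cpm in females and 234.0 to 1248 cpm in males (log2 difference 0.49, SE 1.02). Without isomiRs with abrupt zeros the difference of miR-200b-3p was 6.44, with the smallest adjusted p of that fit (edgeR, 0.227). That step left out 4 of its 7 counted forms, among them those with 38.5, 31.8 and 22.1% of its counts. The 6.44 thus rests on few counts, and a 24 nt form that was kept had 4, 4, 7 and 6 counts in the males and 0 in the females.

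Besides miR-122-3p, a pair of the 13 names was at 0 in all 4 males, and both were low in the females as well. miR-20a-5p, of the miR-17 to miR-92 cluster, had 16, 24, 3, 5 and 0 counts in the females, a mean of 62.7 cpm, which was under the mean floor of the males. miR-135c had 80, 7, 4, 0 and 21 counts in the females, and their mean of 178 cpm was 2.42-fold the mean floor of the males. In kisspeptin fish miR-135c was counted in 2 males and no female.
miR-20a-5p: tAAAGTGCttatagtgcaggta
miR-135c: tATGGCTTtctattcctatgtga
The fitted log2 differences of miR-20a-5p and miR-135c were -5.72 and -6.92 (edgeR, both with an adjusted p of 0.326), which depend on the prior count. No name with at least 10 counts was found in all fish of a sex and in none of the other.

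The TMM-scaled levels of 6 of the 123 tested names (4.88%) did not overlap between the sexes. Besides miR-203a and miR-199a-5p, these were miR-1957a and miR-1692, higher in all males, and miR-130b-3p and miR-456, lower in all males. miR-130b-3p had 37, 10, 19, 36 and 32 counts in the females and 4, 1, 0 and 0 in the males (log2 difference -3.66, SE 1.84, edgeR adjusted p = 0.435). miR-456 had 8, 21, 16, 9 and 10 counts in the females and 2, 2, 0 and 0 in the males (-2.80, SE 1.59, edgeR adjusted p = 0.558). In both, the counts of every male were under those of every female. In cpm, which leaves out the TMM factors, the sexes overlapped, since A2-11 was above A2-5 in miR-130b-3p (101.9 and 61.1 cpm) and above A2-2 in miR-456 (50.9 and 41.7 cpm).

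The names miR-1957a and miR-1692 share part of their sequence. Their most abundant forms, with the seed in capitals, are shown because both hold the run of 10 bases given after them.
miR-1692: tTGTAGCTcagttggtaga
miR-1957a: aGTAGCTCagtggta
shared run: GTAGCTCAGT
The last 9 bases of that run, TAGCTCAGT, were held by 37 of the 2129 isomiRs (1.74%), all under these 2 names, a stretch chosen after the values were seen. Whether these isomiRs come from miRNA hairpins or from other RNAs of the plasma was not tested. Summed over the 37, there were 51, 52, 89, 42 and 60 counts in the females and 62, 97, 77 and 61 in the males, and these ranges overlap. In cpm they were 265.8 to 1133 in females and 1454 to 2574 in males. miR-1957a itself had 6, 6, 0, 0 and 0 counts in the females and 11, 7, 18 and 14 in the males (log2 difference 3.69, SE 1.63, edgeR, adjusted p = 0.347), so that every male was above every female in counts too. miR-1692 had 42 to 89 counts in the females and 47 to 97 in the males, and also overlapped in cpm, with A2-16 at 1120 and A2-10 at 1133 (log2 difference 1.09, SE 0.85, edgeR adjusted p = 0.609). miR-1582, with 2 counts in 1 female and 5, 11, 0 and 5 in the males, was close to the floor throughout (log2 difference 4.10, SE 1.72, edgeR adjusted p = 0.326).

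The abundant miRNAs had small differences beside the scarce ones. Among the deposited names, which hold no let-7, the 10 with the highest level had log2 differences from -1.41 to -0.13 under TMM scaling. They held 64.8 to 84.7% of the deposited counts in females and 73.0 to 81.2% in males. Of these, miR-126a-3p and miR-16b had an unadjusted p under 0.05. In this group 7 (miR-125a, miR-144-5p, miR-146a, miR-15a, miR-21, miR-22a and miR-26b) took the opposite sign with library totals as the only scaling, so no direction is given for them. miR-22a was at 93287 to 218800 cpm in females and at 133010 to 222580 cpm in males (log2 difference -0.40, SE 0.35). miR-21, induced in growing and inflamed tissue, was at 213000 to 286480 cpm in the 4 males, and at 47508 cpm in A2-10 against 181750 to 301040 cpm in the other 4 females. miR-146a, induced by inflammatory signals in leukocytes, varied least among the males, at 44830 to 53614 cpm, against 19703 to 68108 cpm in the females.

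The erythrocyte miRNAs overlapped between the sexes. miR-451, which is matured by Ago2 without Dicer and is abundant in red cells, was at 36925 to 216840 cpm in females and 39322 to 116840 cpm in males (log2 difference -0.97, SE 0.80, edgeR adjusted p = 0.640). miR-16b was at 81941 to 151150 cpm in females and at 148320, 105220, 34227 and 94474 cpm in the males (-0.76, SE 0.35, edgeR, adjusted p = 0.406), and without A2-14, which lacked its main form, it was at -0.48. The log2 ratio of miR-451 to miR-23a, a measure of red cell lysis, was 4.01 ± 3.68 (SD, n = 4) in males and 7.21 ± 2.25 (SD, n = 5) in females (two-sided exact permutation test, p = 0.159). This ratio turned on miR-23a-3p, which had 2170 and 1695 counts in A2-12 and A2-16, 1256 in A2-7 and 12 to 68 in the other 6 fish. All 6 tested names of the erythrocyte list had a negative difference under TMM scaling, against 66 of 123, and miR-144-5p among them was at 0.22 with library totals alone. Of the 6, 1 had an unadjusted p under 0.05, against 7 of 123 on that side, and the median was -1.0 in control fish and 0.14 in kisspeptin fish. The share of 21 and 22 nt reads was 78.5 ± 2.44% (SD, n = 4) in males and 76.2 ± 6.26% (SD, n = 5) in females (exact p = 0.722), with A2-10 at 65.1%.

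The remaining lists gave no name past the threshold. Of 7 tested names of the reproductive axis, 1 was higher (miR-141) and 1 lower (miR-202-5p) in males at an unadjusted p under 0.05, with a median log2 difference of 0.49. Connective tissue had 1 of 4 (miR-199a-5p, median 1.63), with 3 names higher and 1, miR-199a-3p, lower in males. Leukocyte and platelet, striated muscle, eye and neuroendocrine, and nervous tissue names had 0 of 7, 0 of 4, 0 of 4 and 0 of 1, with medians of -0.01, 1.22, 1.79 and 3.19. Those numbers stand against 13 of 123 names and a median of -0.13 over all. Among their leading members, the muscle miRNA miR-206-3p was at 1063 to 14850 cpm in females and at 2903 to 63558 cpm in males (log2 difference 1.55, SE 1.04), and miR-1c at 187.7 to 1943 and 668.5 to 3320 cpm (0.88, SE 0.93). miR-223-3p, of neutrophils, was at 188.8 to 13990 cpm in females and 2496 to 14807 cpm in males (0.31, SE 1.13). miR-204, of the eye, had 0 counts in A2-9 and A2-10 and 23 to 746 counts in the males (1.97, SE 1.88), and miR-183, of sensory cells, was at 0 in A2-2, A2-10 and A2-16 (3.26, SE 1.89). Of the 4 tested names of that list 3 were higher in males and 1, miR-184-3p, was lower (-5.77, SE 2.75, edgeR adjusted p = 0.410). miR-184-3p had 43 counts in A2-5, 10 in A2-7 and 0 in every male. Its female mean, 68.6 cpm, was under the mean floor of the males. The neuronal miR-128 was at 0 in A2-2, A2-10 and A2-14 and at 7742 cpm in A2-11 (3.19, SE 2.08), and as the one tested name of its list it sets that median. Its difference was 1.23 without A2-11. Without isomiRs with abrupt zeros it was 0.84 for miR-128, 0.074 for miR-204, -0.29 for miR-183, -1.03 for miR-206-3p and -1.57 for miR-223-3p.

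In single isomiRs, the test called 0 of 684 (0.0%) in edgeR, with 77 (11.3%) at an unadjusted p under 0.05. limma-voom called 5 and DESeq2 15. The smallest p was that of a form of miR-21 that lacks the last 2 bases of the main form.
miR-21, main form: tAGCTTATcagactggtgttgg
miR-21, 20 nt form: tAGCTTATcagactggtgtt
miR-21, form with a 5′ c: cTAGCTTAtcagactggtgttgg
This 20 nt form of miR-21 had 653, 322, 265, 152 and 209 counts in the 5 females and 0 in all 4 males, whose total miR-21 was 8571 to 15624 counts. By the definition used here the zeros of the males are abrupt zeros. An absence of this form in males and a gap in the listing therefore cannot be told apart. The mean of the form in the females was 36.0-fold the floor of 3 counts per male library (edgeR, adjusted p = 0.0639). With the 9 control fish fitted alone its adjusted p was 0.00266, and 0.00189 at equal depth. In kisspeptin fish the 20 nt form was counted in 4 of 5 females and 5 of 6 males. The form with an added 5′ c, whose seed is shifted by 1 base, had 8 to 24 counts in each female and 0 in each male (edgeR adjusted p = 0.383), and in kisspeptin fish it was counted in 2 of 5 females and 5 of 6 males.

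Of 805 isomiRs with at least 10 counts, 5 were counted in all 5 females and no male, and 1 in all 4 males and no female. Besides the 2 forms of miR-21, those of the females were short forms of miR-130b-3p, miR-144-5p and miR-2188, and the one of the males was a long form of miR-200b-3p.
miR-130b-3p: cAGTGCAAtaatgaaaggg
miR-144-5p: tATCATCTtatactgtaagt
miR-2188: aAGGTCCAacctcacatgt
miR-200b-3p: tAATACTGcctggtaatgatgatt
The forms of miR-130b-3p, miR-144-5p and miR-2188 had 2 to 24, 2 to 21 and 3 to 22 counts per female, and that of miR-200b-3p had 4, 4, 7 and 6 counts in the males (each with an edgeR adjusted p of 0.383). The means of the females were 1.38-, 1.57- and 1.89-fold the male floor. For miR-200b-3p the mean of the males was 4.49-fold the female floor. Female libraries mostly held more miRNA counts, so total counts and sex cannot be told apart in how many such forms each sex had. In kisspeptin fish the form of miR-200b-3p was counted in 1 of 5 females and 3 of 6 males, and the form of miR-130b-3p in none. The form of miR-2188 was counted there in 1 of 5 females and 4 of 6 males, and that of miR-144-5p in 3 of 5 females and 3 of 6 males. Among the other isomiRs with the smallest p, the 22 nt form of miR-23a-3p had 1998 and 1688 counts in A2-12 and A2-16 and 0 in the other 7 fish, and a 19 nt form of miR-214-3p had 145, 278 and 251 counts in 3 males and 0 in the other 6 fish. A 22 nt form listed under miR-200a-3p had 18 and 54 counts in A2-11 and A2-12 and 0 in the other 7.
miR-23a-3p: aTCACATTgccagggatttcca
miR-214-3p: tACAGCAGgcacagacagg
miR-200a-3p: tAACACTGtctggtaacgatgt
Of all isomiRs, 88 were counted in each of the 9 control fish, and 47 of the names were.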

How the data were processed

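Reads from blood plasma were trimmed of the adapter and of 4 random bases at each end with Cutadapt, mapped with bowtie2 (k = 10) to the hairpins of miRBase 21 and counted per isomiR. The sources differ on the version of Cutadapt, and the submitters' processing notes give Bowtie2 2.4.1 and HTSeq 0.6.0. The authors deposited these counts as whole numbers without normalization.

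IsomiR counts were summed to miRNA names. Control males and females were compared in edgeR 4.0.16 (quasi-likelihood test, under R 4.3.3) in a fit of the 20 fish of 2 d as 4 groups, with TMM scaling, for features with at least 1 cpm in at least 4 fish, and p-values were adjusted (Benjamini-Hochberg) over all of them. The study used limma-voom, which was run as an alternative (limma 3.58.1), as was DESeq2 1.42.0. Levels used a prior count of 1. Single values and the separation were compared with exact permutation tests over all assignments of the sex labels. Other steps used Python 3.11.15 with pandas 2.3.3, scipy 1.17.1, numpy 2.4.6 and, for plots, matplotlib 3.10.9. An abrupt zero was a count of 0 where the mean share in the control libraries with the isomiR implied at least 30 counts. Floors are 3 counts per library and cover counting error only.

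The 12 names with the smallest p, the 10 with the highest level, names whose groups did not overlap, both arms of miR-202 and the 2 highest of each list were named. For isomiRs these were the 6 with the smallest p and those of a single sex. Other names were added where a result turned on them. The members and lists were chosen with earlier results of these data known. The scripts were tested on simulated data that did not model abrupt zeros and had less spread than the isomiR counts (common dispersion 4.29). The isomiR results are therefore not covered by that test. Within each sex, chi-square over its degrees of freedom was 62.0 to 217 for the pairs of libraries, so none was counted as a repeat. Each library is labelled as 1 fish, and all 9 shared a tank, so p-values measure the spread between these fish. The columns used were 30, 1 per fish, and none was left unassigned.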

Additional observations from a re-analysis of the deposited data

Results flagged for a closer look

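Values of 1 fish far from the rest of its group were found in 13 of 78 sets of 4 males or 5 females. A rate of 1 in 20 would give 3.9. The sets share the same fish, many are names picked by these same values, and some hold ties at 0 counts. The 13 therefore cannot be read as an excess over chance. In percent of reads, A2-10 had 65.1% of 21 and 22 nt reads against 77.7% in the nearest female. In log2 cpm, where 3.75 is the value of 0 counts, the males A2-11, A2-14 and A2-16 stood at 3.75 for miR-141, miR-1582 and miR-183, and the female A2-10 at 3.75 for miR-214-3p. The male A2-12, which lacked the main forms of miR-122-5p, was low in that name (8.89, nearest 13.30). A2-16 was low in miR-202-5p (8.11, nearest 10.39) and A2-11 in miR-126a-3p (14.19, nearest 15.02) and miR-223-3p (10.93, nearest 13.38). A2-11 was also high in miR-143-3p (14.51, nearest 10.28). Among the females, A2-5 was high in miR-15a (15.59), A2-7 was the only one with counts of miR-1582 (4.92), and A2-2 was low in miR-456 (6.22).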

How the results depend on the processing

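For miRNAs, the count past the threshold was 0 in every alternative run except limma-voom (1, adjusted p = 0.0178), and the test by treatment gave 1 with limma-voom (0.0483) and 1 with DESeq2 (0.0367). For isomiRs it was 5 of 684 with limma-voom, 15 of 684 with DESeq2 and 30 of 1857 without a filter. It was 1 of 365 with the control fish alone and 1 of 317 at equal depth. The DESeq2 calls included forms of miR-214-3p and miR-23a-3p that were at 0 in most control fish, with fitted log2 differences of 26.2 and 28.7. With each fish left out, the count was 0 for miRNAs and 0 for isomiRs, the difference in log2 total lay between -1.67 and -1.21 (exact p up to 0.0571, and above 0.05 for 7 of the 9 fish left out), the log2 ratio of miR-451 to miR-23a between -4.46 and -1.95, the names at equal depth between 0.78 and 8.96, and the share of 21 and 22 nt reads between -0.44 and 3.35. With at least 3 counts per name, the names at equal depth differed by 9.69 (exact p = 0.0317), with 20 to 23 nt the share differed by -0.58, and the separation with 35 miRNAs was 15.7%.

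Several differences took the opposite sign. With library totals alone these were miR-125a (0.18), miR-144-5p (0.22), miR-146a (0.31), miR-15a (0.31), miR-21 (0.34), miR-22a (0.062) and miR-26b (0.22). With at least 1 cpm in all fish they were miR-125a (0.028), miR-144-5p (0.011), miR-146a (0.17), miR-15a (0.15), miR-21 (0.016) and miR-26b (0.078), and with all 30 fish miR-146a (0.14), miR-15a (0.10), miR-21 (0.030) and miR-26b (0.10). Other tests gave miR-146a 0.035 (DESeq2), miR-21 0.074 and miR-26b 0.016 (limma-voom), equal depth gave miR-146a 0.023, and means of log2 cpm gave miR-21 0.089 at either prior count. Without isomiRs with abrupt zeros, chosen after seeing the data, miR-183 was at -0.29, miR-199a-5p at -0.11, miR-206-3p at -1.03, miR-223-3p at -1.57 and miR-24a-3p at -0.23. With 1 fish left out, the ranges that crossed 0 were miR-125a (-0.60 to 0.16), miR-15a (-0.29 to 0.20), miR-223-3p (-0.0089 to 1.04), miR-24a-3p (-0.0014 to 4.35) and miR-26b (-0.57 to 0.029). The cause was not tested. No paired analysis was possible because the fish of the sexes share no pair and their numbers are only names. Depth limits the names under 3 counts per library, a floor of 15.6 to 100.3 cpm.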
